A study of Mus musculus with 6 samples.

Results

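ADAM, ADAMTS and ADAMTSL genes encode 3 related subfamilies of proteins that act at the cell surface and in the extracellular matrix. They were found by their symbols (Adam, Adamts or Adamtsl followed by a number and at most 1 letter), and 57 of the 43548 gene identifiers in the table were members: 33 ADAM, 19 ADAMTS and 5 ADAMTSL genes. Their mRNA was measured in Met-1 TripZ-200c cells, a mouse mammary carcinoma line from a late-stage MMTV-PyMT tumor of the FVB/nJ strain. The cells carry the doxycycline (Dox)-inducible TripZ vector with miR-200c and were grown as 1 clone sorted for tight induction. Cells received vehicle or 1 µg/mL Dox for 48 h, with 3 libraries per group plated in triplicate, so both groups carry the vector and differ in Dox alone. Dox and miR-200c came together in these libraries and cannot be told apart, since cells with the empty vector are not analysed here.

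ADAM proteins are membrane-anchored proteases that cut the ectodomains of growth factors, receptors and adhesion molecules from the cell surface. ADAMTS proteases are secreted, carry thrombospondin repeats that hold them in the matrix, and cleave proteoglycans, procollagens and other matrix proteins. ADAMTSL proteins resemble the ADAMTS ancillary domains but lack the protease domain, and several bind fibrillin microfibrils. MiR-200c belongs to a microRNA family that keeps cells epithelial by repressing Zeb1 and Zeb2, and it pairs with the 3′ UTR of an mRNA through its seed.

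Values are FPKM, which scales the fragments assigned to a gene by its length and by how many reads were mapped. FPKM hides the number of reads behind a value. The lowest values placed the relative depth of the libraries between 0.916 and 1.49, and 16867 to 18012 genes were above 0 in a library. A 0 need not mean absence, because all 37 mitochondrial genes were listed at 0. The Mir200c gene was also at 0 in all 6 libraries, and mRNA libraries do not read the mature microRNA. Zeb1 fell from 41.8 ± 0.682 to 21.2 ± 2.05 FPKM (mean ± SD, n = 3 per group, limma adjusted p = 3.62e-04) and Zeb2 from 29.3 ± 1.43 to 8.29 ± 0.661 (limma adjusted p = 4.48e-05). Crb3, an epithelial polarity gene, was listed at 0 in the 3 vehicle libraries and rose to 4.31, 2.60 and 2.06 FPKM (limma adjusted p = 0.00211). Crb3 reached the mean of 1 FPKM needed for testing only through the libraries with Dox, so its being tested and its rise are linked. Genes averaging at least 1 FPKM over the 6 libraries were tested with limma on log2(FPKM + 0.1), and a gene is said to rise or fall only where the Benjamini-Hochberg adjusted p over all 12879 genes tested was under 0.05. Folds are ratios of mean FPKM, and log2 changes are with Dox against without Dox on the log2(FPKM + 0.1) scale, so they understate the change of low genes. The p-values measure the spread between culture dishes of 1 clone.

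The seed of miR-200c and its matches in the 3′ UTRs of members are printed to show which transcripts hold the letters that the microRNA could pair with. The microRNA is printed 5′ to 3′ with bases 2 to 8 in capitals, from RefSeq for GRCm38.p6, and lies at chr6:124718324-124718346 on the minus strand. The letters searched were CAGTATT, the reverse complement of those bases, on the transcript strand of the longest annotated 3′ UTR of each gene.
mmu-miR-200c-3p: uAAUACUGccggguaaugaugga
Of the 20 members tested, 5 held CAGTATT, each of them once and each of them an ADAMTS or ADAMTSL gene. Each is printed below 5′ to 3′ as 30 bases of the GRCm38 transcript with the match in capitals, and none was read from the FVB genome.
Adamts8, chr9:30962696-30962725, plus strand: cgtggctgttttCAGTATTaaaatctgttg
Adamtsl3, chr7:82612873-82612902, plus strand: aacacatttatgCAGTATTtatgttttaaa
Adamts9, chr6:92772802-92772831, minus strand: ggaaaaccctgaCAGTATTccccaactcca
Adamts12, chr15:11349155-11349184, plus strand: cagtgagtacctCAGTATTaaaaccagatt
Adamts5, chr16:85856864-85856893, minus strand: gtctttacatagCAGTATTgaaatgtgcat
Among all tested genes with an annotated 3′ UTR, 1737 of 10798 (16.1%) held the same letters. The match starts at base 490 of 638 in the Adamts8 3′ UTR and at base 387 of 1952 in that of Adamtsl3. In Adamts9 it starts at base 1763 of 1883, in Adamts12 at base 3490 of 3554 and in Adamts5 at base 5729 of 6437. A match is a description of these letters, and binding was not measured.

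Several secreted ADAMTS and ADAMTSL genes fell with Dox, while 1 membrane ADAM gene did. Of 10 ADAMTS genes tested 5 fell (Adamts8, Adamts14, Adamts4, Adamts7 and Adamts9), of 3 ADAMTSL genes 2 fell (Adamtsl3 and Adamtsl5), and of 7 ADAM genes only Adam15 fell. Among the genes that fell, Adamts8 was tested only because of its level without Dox, so its place in this count is linked to its fall. With limma 0 members rose, and Adam9 and Adamts1 were the 2 higher members with an unadjusted p under 0.05. An unmoderated linear model on FPKM also gave 0 higher members. Over all genes tested 15.0% passed the test, 7.97% as lower and 7.06% as higher with Dox. The median log2 change was -0.02 over the 7 ADAM genes, -0.53 over the 10 ADAMTS genes and -0.76 over the 3 ADAMTSL genes, beside 0.00 over all genes tested. The difference between subfamilies was not tested, because their members are few and are not replicates. The groups did not overlap in 10 tested members that were lower with Dox and in 2 that were higher, Adam9 and Adamts1. Over all genes 17.6% were lower without overlap and 17.4% were higher.

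**Figure D1:**
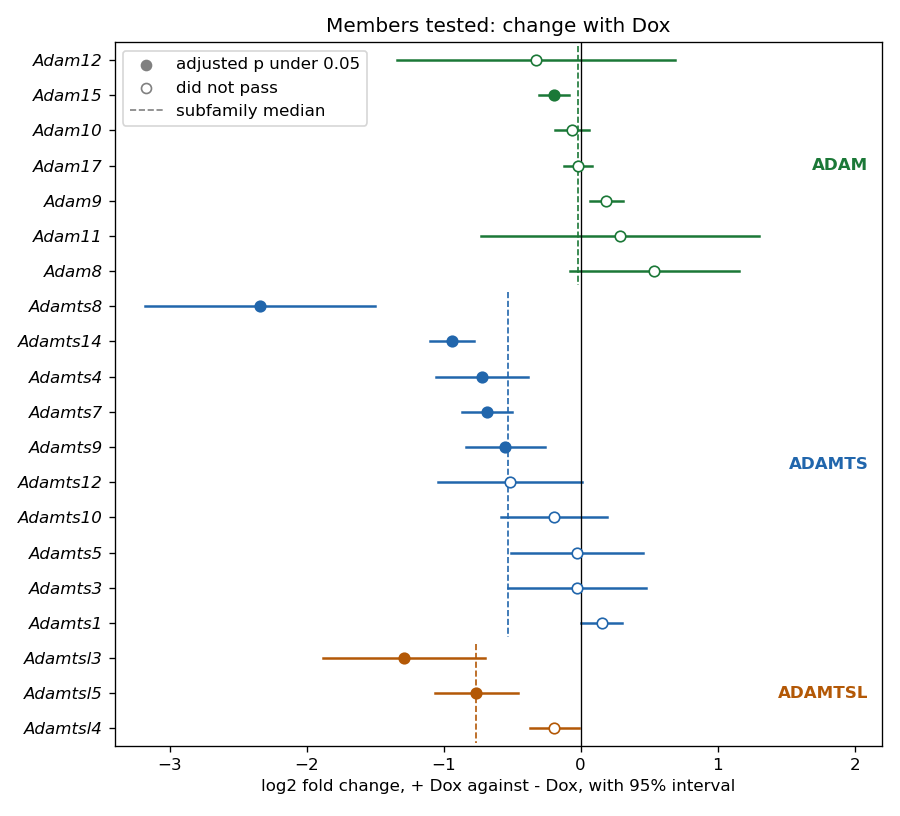
Log2 change of each tested member with Dox against without Dox (horizontal axis, points, with 95% intervals from limma), grouped by subfamily; filled points passed an adjusted p of 0.05 and dashed lines are subfamily medians. The 8 filled points all lie below 0, with 1 in ADAM, 5 in ADAMTS and 2 in ADAMTSL.

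Among the membrane proteases Adam15, Adam10, Adam9 and Adam17 were abundant, and only Adam15 fell. Adam17, whose product releases tumor necrosis factor and several EGF receptor ligands, had 33.2, 33.5 and 33.6 FPKM in the libraries without Dox and 33.1, 32.4 and 33.3 with Dox. Its log2 change was -0.02, with a 95% interval of -0.12 to 0.08. Its exons overlap Iah1 on the other strand, which was at 24.7 FPKM without Dox and 23.4 with Dox. ADAM10 sheds cadherins and makes the extracellular cut of Notch receptors. Adam10 was at 105, 95.4 and 107 FPKM without Dox and 96.6, 98.2 and 100.2 FPKM with Dox. The groups of both genes overlapped, and the log2 interval of Adam10 (-0.18 to 0.06) leaves room for a small change in either direction.

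Adam15 (ENSMUSG00000028041, GRCm38 chr3:89338542-89349996, minus strand) encodes a membrane protease that also binds integrins. Its level was 113, 120 and 109 FPKM without Dox and 96.9, 99.7 and 103 FPKM with Dox. All 3 libraries with Dox were below all 3 without. Adam15 fell by 0.19 on the log2 scale (SE 0.0466, adjusted p = 0.0336), a drop to 0.874 of the level without Dox. This call was lost in 5 of the 6 fits that left out a library, where the adjusted p ran from 0.0387 to 0.0996 and only the fit without the third library without Dox passed. Of the Adam15 transcript 24.8% is shared with 4731419I09Rik on the other strand, which was at 0.217 FPKM without Dox and 0.329 with Dox.

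ADAM9 is a widely expressed sheddase. Adam9 measured 58.5, 56.7 and 59.7 FPKM with vehicle and 62.9, 66.4 and 70.1 FPKM after Dox. Every library with Dox was above every library without, but its log2 difference of 0.19 (SE 0.0513) missed the threshold, with an adjusted p of 0.0509. The adjusted p ran from 0.0430 to 0.144 over 15 other settings, of which 5 passed.

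Adam8, Adam11 and Adam12 were close to the lower limit of the test. ADAM8 is a sheddase best known from leukocytes and invasive tumors. Adam8 gave 1.60, 1.43 and 1.66 FPKM in vehicle cultures and 2.86, 2.61 and 1.65 FPKM in Dox cultures. Its log2 interval ran from -0.08 to 1.153 (adjusted p = 0.226), and the third library with Dox lay within the range without Dox. The antisense neighbor Gm16201 overlaps its exons and was at 0.0614 FPKM without Dox and 0.379 with Dox. Adam12, which is expressed in mesenchymal cells and many tumors, had 2.01, 0.666 and 1.39 FPKM in the vehicle libraries and 1.10, 0.816 and 1.02 FPKM in the Dox libraries. Adam11 belongs with Adam22 and Adam23 to the ADAM genes without an active protease site, which act in the nervous system. Adam11 measured 1.57, 0.564 and 1.70 FPKM with vehicle and 1.44, 1.27 and 1.62 FPKM after Dox. The second library without Dox was the lowest of the 6 for both genes, and neither passed the test (adjusted p = 0.673 for Adam12 and 0.712 for Adam11). Adam12 reached the filter of 1 FPKM only through its mean without Dox.

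**Figure D2:**
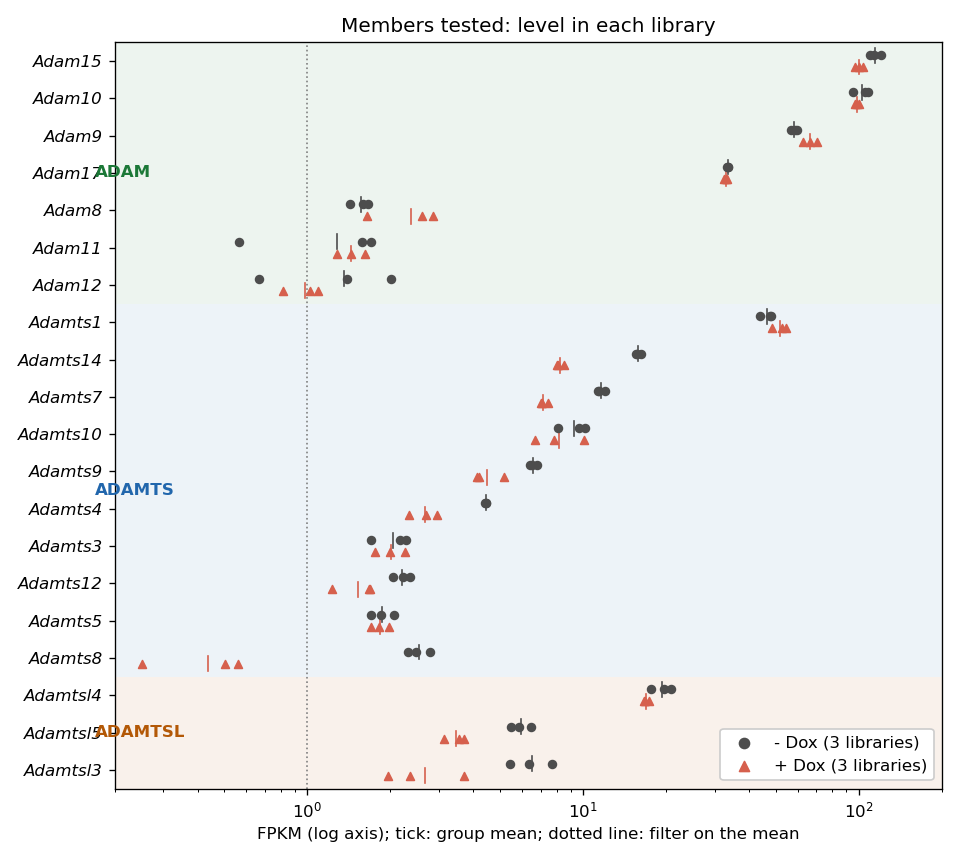
FPKM (horizontal log axis) of each of the 20 tested members in the 3 libraries without Dox (circles) and the 3 with Dox (triangles), with group means as ticks. Adam15 and Adam10 lie highest near 100 FPKM, and Adamts8 shows the widest gap, with 2.32 to 2.79 FPKM without Dox and 0.250 to 0.560 with Dox.

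The ADAMTS proteoglycanases cleave aggrecan, versican and related proteoglycans, and 5 of the 7 genes of this group were tested. Adamts8, Adamts4 and Adamts9 fell, while the abundant Adamts1 and the weakly expressed Adamts5 did not pass the test. ADAMTS8 is known as an inhibitor of angiogenesis as well as a protease. Adamts8 (ENSMUSG00000031994, GRCm38 chr9:30942562-30963838, plus strand) gave 2.32, 2.79 and 2.48 FPKM in vehicle cultures and 0.250, 0.560 and 0.501 FPKM in Dox cultures. The groups were far apart, and the mean was 5.79-fold lower with Dox. The log2 change was -2.34 (SE 0.357, adjusted p = 0.00636), the strongest decrease among the tested members. It passed under each of 14 other settings, with log2 changes from -2.58 to -1.30. Adamts8 reached the filter only through its mean without Dox, so its passing the filter and its fall are linked. Its transcript shares 13.7% of its bases with Gm29724.

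ADAMTS4 is an aggrecanase. Adamts4 (ENSMUSG00000006403, GRCm38 chr1:171250421-171260637, plus strand) had 4.44, 4.40 and 4.45 FPKM in the vehicle libraries and 2.94, 2.70 and 2.34 FPKM in the Dox libraries. The libraries without Dox were nearly equal, and all 3 with Dox lay below them. The log2 change was -0.72 (SE 0.143, adjusted p = 0.0171), with an adjusted p from 0.0312 to 0.0568 when 1 library was left out, where only the fit without the first library with Dox passed.

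ADAMTS9 cleaves versican and is one of the longest proteases of the group. Adamts9 (ENSMUSG00000030022, GRCm38 chr6:92772699-92943492, minus strand) measured 6.52, 6.40 and 6.81 FPKM with vehicle and 4.19, 5.16 and 4.11 FPKM after Dox. The second library with Dox was the closest to the group without Dox, but the groups stayed apart. Its log2 change was -0.55 (SE 0.123, adjusted p = 0.0270), and among the fits that left out a library only the fit without this second library passed (adjusted p = 0.0264). A pair of genes on the other strand that overlap its exons were at or near 0.

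ADAMTS1 cleaves versican and was by far the most abundant ADAMTS transcript in both groups. Adamts1 gave 48.1, 43.7 and 47.6 FPKM in vehicle cultures and 48.3, 54.4 and 52.5 FPKM in Dox cultures. Every library with Dox was above every library without, by a narrow margin at the closest pair. The log2 difference of 0.15 (interval 0.01 to 0.30) did not pass, with an adjusted p of 0.155. ADAMTS5 is the main aggrecanase of mouse cartilage. Adamts5 had 1.70, 2.06 and 1.85 FPKM in the vehicle libraries and 1.70, 1.98 and 1.82 FPKM in the Dox libraries, a log2 difference of -0.03 (interval -0.51 to 0.45). Its groups overlapped, and its 3′ UTR holds the seed match printed above. Adamts15 was below 0.1 FPKM on average, and Adamts20 was at 0 in all libraries.

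ADAMTS2, ADAMTS3 and ADAMTS14 remove the amino-terminal propeptide of procollagens. Adamts14 (ENSMUSG00000059901, GRCm38 chr10:61197112-61273438, minus strand) measured 15.7, 15.5 and 16.2 FPKM with vehicle and 8.54, 8.003 and 8.08 FPKM after Dox. Its mean was 1.92-fold lower with Dox, and the gap between the groups was many times the spread within either of them. The log2 change was -0.94 (SE 0.0683, adjusted p = 3.24e-04), the smallest adjusted p among the members, and it passed under each of 15 other settings. The longest 3′ UTR of Adamts14 does not hold the seed match. Adamts3, which also activates VEGF-C, gave 2.16, 2.28 and 1.70 FPKM in vehicle cultures and 1.76, 1.99 and 2.26 FPKM in Dox cultures. Its groups overlapped fully (log2 difference -0.03, adjusted p = 0.954), and Adamts2 averaged below 0.1 FPKM.

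ADAMTS7 and ADAMTS12 cleave cartilage oligomeric matrix protein. Adamts7 (ENSMUSG00000032363, GRCm38 chr9:90163069-90208071, plus strand) had 12.02, 11.4 and 11.3 FPKM in the vehicle libraries and 7.06, 7.03 and 7.43 FPKM in the Dox libraries. The libraries with Dox lay close together and well below the others. The log2 change of -0.68 (SE 0.0759, adjusted p = 0.00171) passed under each of 15 other settings. Exons of Adamts7 overlap Tbc1d2b on the other strand, which was at 7.76 FPKM without Dox and 7.06 with Dox (adjusted p = 0.444). Adamts12 measured 2.35, 2.22 and 2.04 FPKM with vehicle and 1.69, 1.67 and 1.23 FPKM after Dox. Its groups did not overlap, but the log2 difference of -0.51 (interval -1.04 to 0.01) did not pass, with an adjusted p of 0.180.

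ADAMTS10 and its close relative ADAMTS6 are known from fibrillin microfibrils. Adamts10 gave 10.1, 8.07 and 9.66 FPKM in vehicle cultures and 7.81, 6.71 and 10.1 FPKM in Dox cultures. The third library with Dox lay among those without Dox, and the log2 interval of -0.58 to 0.19 includes 0. Adamts6 was below the filter at 0.835, 0.707 and 0.549 FPKM without Dox and 0.877, 0.943 and 0.876 FPKM with Dox. Its groups did not overlap, but it did not pass in a fit of all 20513 genes without the filter (adjusted p = 0.587), in which 7.84% of genes passed. Of the ADAMTS16 to ADAMTS19 genes none averaged 0.1 FPKM, and Adamts13, whose product cuts von Willebrand factor, was at 0 in all libraries.

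Both of the less abundant ADAMTSL genes tested fell, whereas the most abundant one did not pass. ADAMTSL3 is a secreted matrix glycoprotein. Adamtsl3 (ENSMUSG00000070469, GRCm38 chr7:82335694-82614450, plus strand) had 5.43, 6.36 and 7.72 FPKM in the vehicle libraries and 1.96, 3.69 and 2.36 FPKM in the Dox libraries. Its libraries spread more widely than those of Adamtsl5, but the groups did not overlap and the mean was 2.43-fold lower with Dox. The log2 change was -1.29 (SE 0.251, adjusted p = 0.0162). The call was lost without the second (adjusted p = 0.0507) or the third library without Dox (0.0571), without the third library with Dox (0.0581), and in a linear model per gene on FPKM (0.0753).

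ADAMTSL5 binds fibrillin. Adamtsl5 (ENSMUSG00000043822, GRCm38 chr10:80339110-80348412, minus strand) measured 5.85, 6.48 and 5.47 FPKM with vehicle and 3.14, 3.54 and 3.70 FPKM after Dox. All libraries with Dox were lower, by 1.71-fold on the means. The log2 change of -0.76 (SE 0.128, adjusted p = 0.00947) passed under each of 14 other settings, and the longest 3′ UTR of 314 bases held no seed match. ADAMTSL4 supports fibrillin microfibrils, and its loss displaces the lens of the eye. Adamtsl4 gave 17.6, 19.6 and 20.8 FPKM in vehicle cultures and 17.3, 16.6 and 16.7 FPKM in Dox cultures. The groups were separated by a small gap, and the log2 difference of -0.19 (interval -0.37 to -0.01) did not pass (adjusted p = 0.147).

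Below the filter, Adamtsl2, whose product binds the latent TGF-β binding protein LTBP1, had 0.359, 0.0738 and 0.138 FPKM in the vehicle libraries and 0, 0.595 and 1.54 FPKM in the Dox libraries. These libraries disagreed within the group with Dox, and the adjusted p without the filter was 0.690. Adamtsl1 stayed near 0, with 0.0127 to 0.0388 FPKM without Dox and 0.0512 to 0.102 with Dox. Its groups did not overlap, and it did not pass in the fit without the filter (adjusted p = 0.250).

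The other members were at or near 0. Of the 57 genes 20 were tested, 5 lay below the filter with a mean of at least 0.1 FPKM, 12 averaged less than 0.1 FPKM with some library above 0, and 20 were at 0 in every library. None of the 21 ADAM genes of the testis, epididymis or other restricted sites was tested, and 14 of them were at 0, among them Adam2 and Adam3, whose products act on sperm. Adam33, another protease gene, measured 0.0460, 0.0419 and 0.0999 FPKM with vehicle and 0.0673, 0.291 and 0.345 FPKM after Dox. Its adjusted p was 0.290 in the fit without the filter. Adam1a ranged from 0.373 to 1.08 FPKM, and its transcript is wholly shared with Gm42878, 37.7% with Mapkapk5 and 17.8% with Tmem116, so its value is uncertain. Adam1b, near 0, shares 36.1% of its transcript with Adam1a. Adam4 ranged from 0.174 to 0.607 FPKM. Neither Adam1a nor Adam4 passed in that fit (adjusted p = 0.911 and 0.709). Adam19 averaged below 0.1 FPKM, and Adam28 and Adam23 were at 0 in all libraries. Adam25 with Adam39 and Adam26a with Adam26b are near-identical pairs whose reads counting may split, and all 4 were at 0.

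The summed level of each subfamily was read with and without its most abundant gene. The ADAM sum was 317, 309.7 and 317 FPKM without Dox and 296, 303 and 313 FPKM with Dox, a mean of 315 ± 4.21 against 304 ± 8.65 (SD, n = 3 per group). Without Adam15 the ADAM means were 200.2 ± 9.44 and 204 ± 5.53, and the groups overlapped both with and without this gene. The ADAMTS sum was 106, 99.6 and 105 FPKM without Dox and 85.2, 91.3 and 91.3 FPKM with Dox, 13.8% lower on the means. When Adamts1 was left out, the other ADAMTS genes summed to 58.2, 55.9 and 57.1 FPKM without Dox and 36.9, 36.9 and 38.8 FPKM with Dox, 34.3% lower. Adamts1, which was itself not lower, made up much of the ADAMTS total in both groups. The ADAMTSL sum was 29.2, 32.5 and 34.2 FPKM without Dox and 22.5, 24.5 and 24.4 FPKM with Dox, 25.6% lower. Without Adamtsl4 the difference was 45.3%. The sums were not tested.

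**Figure D3:**
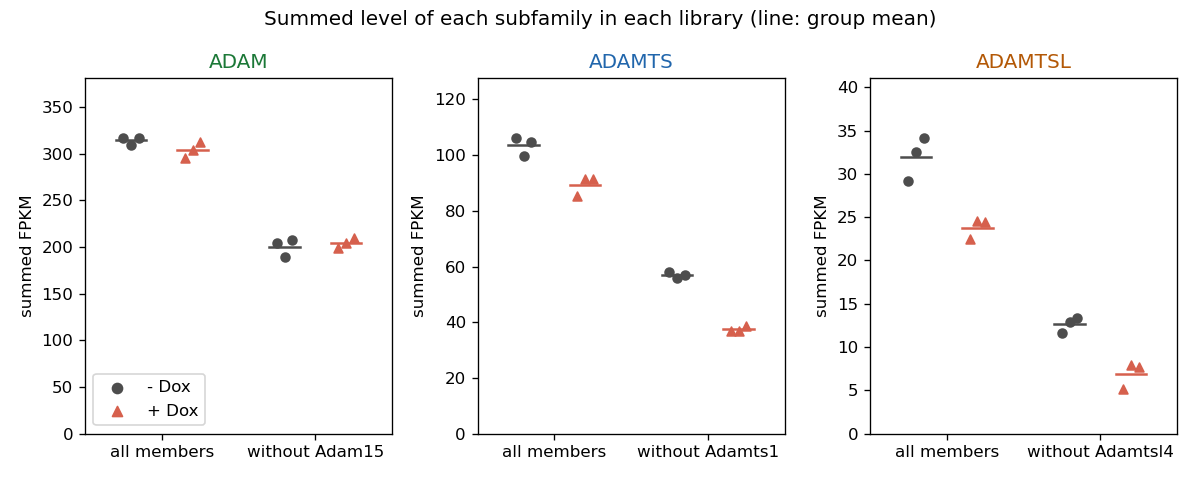
Summed FPKM of each subfamily (vertical axes, starting at 0) in the 3 libraries without Dox (circles) and the 3 with Dox (triangles), for all members and without 1 abundant gene; lines are group means. Without Adamts1 the ADAMTS sums are 55.9 to 58.2 without Dox and 36.9 to 38.8 with Dox, while the ADAM sums overlap both with and without Adam15.

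The seed matches were compared with the calls as a description. Of the 8 members that fell, Adamts8, Adamtsl3 and Adamts9 (37.5%) held CAGTATT in the longest 3′ UTR, and of the other 12 tested Adamts12 and Adamts5 (16.7%) did. Since Adamts8 reached the filter only through its mean without Dox, its place in the first share is linked to its fall. Over all genes with an annotated 3′ UTR, the letters stood in 300 of 964 genes that fell (31.1%) and in 72 of 845 that rose (8.52%). Adamts14, Adamts7, Adamts4, Adamtsl5 and Adam15 fell without a match in this window. The median 3′ UTR of the 20 tested members had 1516 bases, against 1201 bases for all tested genes, and length was not adjusted for. It was 1002 bases over the 8 members that fell and 1854 bases over the other 12.

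Some genes that mature, carry or block these proteases passed the test and others did not. The counts in these lists stand beside 7.97% lower and 7.06% higher over all genes tested. Of 13 genes for ADAM maturation and trafficking 9 were tested, of which 3 fell and 1 rose, with a median log2 change of -0.15. Both iRhom genes, whose products escort ADAM17 to the cell surface, passed in opposite directions. Rhbdf2 rose from 13.2, 13.9 and 13.5 FPKM to 25.7, 27.9 and 26.8 FPKM (log2 change 0.98, adjusted p = 1.47e-04). Rhbdf1 fell from 53.9 ± 4.64 to 43.3 ± 2.55 FPKM (adjusted p = 0.0329). Tspan5 and Tspan15 encode tetraspanins that carry ADAM10. Tspan15 fell from 33.2, 32.9 and 36.5 FPKM to 19.9, 19.1 and 19.0 FPKM (log2 change -0.82, adjusted p = 3.20e-04) and Tspan5 from 54.3 ± 2.83 to 43.4 ± 0.683 FPKM (adjusted p = 0.00736). Adam10 and Adam17 themselves did not pass, as described above. Furin, which removes the prodomain of ADAM and ADAMTS proteases, was at 84.1 ± 2.05 and 85.4 ± 4.36 FPKM (adjusted p = 0.810).

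Of the 6 inhibitor genes 4 were tested and 2 fell, with a median log2 change of -0.22. Reck, a membrane-anchored inhibitor of metalloproteases including ADAM10, fell from 13.1, 11.8 and 12.9 FPKM to 6.93, 8.08 and 8.03 FPKM (log2 change -0.71, adjusted p = 0.00363). Timp2, the most abundant inhibitor transcript, fell from 2081 ± 26.5 to 1695 ± 39.8 FPKM (adjusted p = 5.46e-04). Timp3 encodes the inhibitor best known for blocking ADAM17 and ADAMTS proteases. Its level was 292.5 ± 2.26 FPKM without Dox and 286.5 ± 2.44 with Dox, which did not pass (adjusted p = 0.496). Timp1 did not pass either (adjusted p = 0.118), and Timp4 and A2m were at 0 in all libraries.

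Among 26 genes for cell surface substrates of ADAM10 and ADAM17, 18 were tested, 8 fell and 1 rose (over all genes 7.97% fell and 7.06% rose), with a median log2 change of -0.15. Notch1, a receptor cut by ADAM10, fell from 23.7, 22.8 and 21.2 FPKM to 9.06, 7.60 and 9.11 FPKM (log2 change -1.39, adjusted p = 2.16e-04). Its ligand gene Dll1 rose from 10.0 ± 1.55 to 15.5 ± 1.46 FPKM (adjusted p = 0.0179). The interleukin-6 receptor gene Il6ra fell by 0.50 on the log2 scale (adjusted p = 0.00297). The EGF receptor ligand genes Btc, Areg and Hbegf fell by 0.61, 0.20 and 0.15, with adjusted p of 0.0217, 0.0392 and 0.0339. The other 3 that fell were Cx3cl1 (by 0.29, adjusted p = 0.0132), Cd44 (by 0.15, adjusted p = 0.0208) and Tnfrsf1a (by 0.13, adjusted p = 0.0431). Most of these 8 changes were small beside that of Notch1. Cdh1, the gene of E-cadherin and an ADAM10 substrate, lay below the filter at 0.0585 ± 0.0180 FPKM without Dox and 0.828 ± 0.361 with Dox, and it rose in the fit without the filter (adjusted p = 0.0125).

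Few of the listed substrate genes of the ADAMTS proteases reached the filter. Of 15 only Col5a1, Vegfc and Lox were tested, and all 3 fell. Col5a1, a collagen V chain, fell from 33.6, 32.5 and 31.3 FPKM to 19.3, 20.1 and 19.3 FPKM (log2 change -0.73, adjusted p = 3.28e-04). Vegfc, a lymphatic growth factor, fell by 0.38 (adjusted p = 0.00833), and Lox, the collagen crosslinking enzyme, fell by 0.37 (adjusted p = 0.0137). The proteoglycan genes that name the group lay below the filter. Vcan (versican) was at 0.367 ± 0.106 FPKM without Dox and 0.826 ± 0.651 with Dox, with 1.56 FPKM in the third library with Dox. Acan (aggrecan) was near 0 and reached at most 0.0435 FPKM.

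Thrombospondin repeats need sugars added by POFUT2 and B3GLCT for secretion, and neither gene passed the test (adjusted p = 0.290 and 0.0639). Lrp1, the endocytic receptor that clears ADAMTS4 and ADAMTS5, fell from 174, 167 and 166 FPKM to 82.9, 97.9 and 88.7 FPKM (log2 change -0.91, adjusted p = 2.33e-04). Fbln2, a matrix protein gene, fell from 129 ± 2.88 to 107 ± 8.11 FPKM (adjusted p = 0.0231). With these, 2 of the 4 tested genes of the 5 in this group fell, with a median log2 change of -0.26.

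Of 12 genes for microfibril partners and relatives of ADAMTSL proteins 8 were tested, 2 fell and 2 rose, with a median log2 change of -0.09. Papln, which encodes the related protein papilin, fell from 32.3 ± 0.453 to 20.4 ± 0.451 FPKM (log2 change -0.66, adjusted p = 3.24e-04). Thsd4, another ADAMTSL-like gene that the symbol rule does not take in, rose from 24.7 ± 1.29 to 32.4 ± 0.610 FPKM (adjusted p = 0.00510). The latent TGF-β binding protein genes Ltbp1 and Ltbp2 passed in opposite directions, Ltbp1 falling by 0.23 (adjusted p = 0.00167) and Ltbp2 rising by 0.32 (adjusted p = 0.0245) on the log2 scale. Fbn1, the fibrillin-1 gene, was near 0 in both groups, while Fbn2 was at 8.90 ± 0.126 and 8.58 ± 0.502 FPKM.

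**Figure D4:**
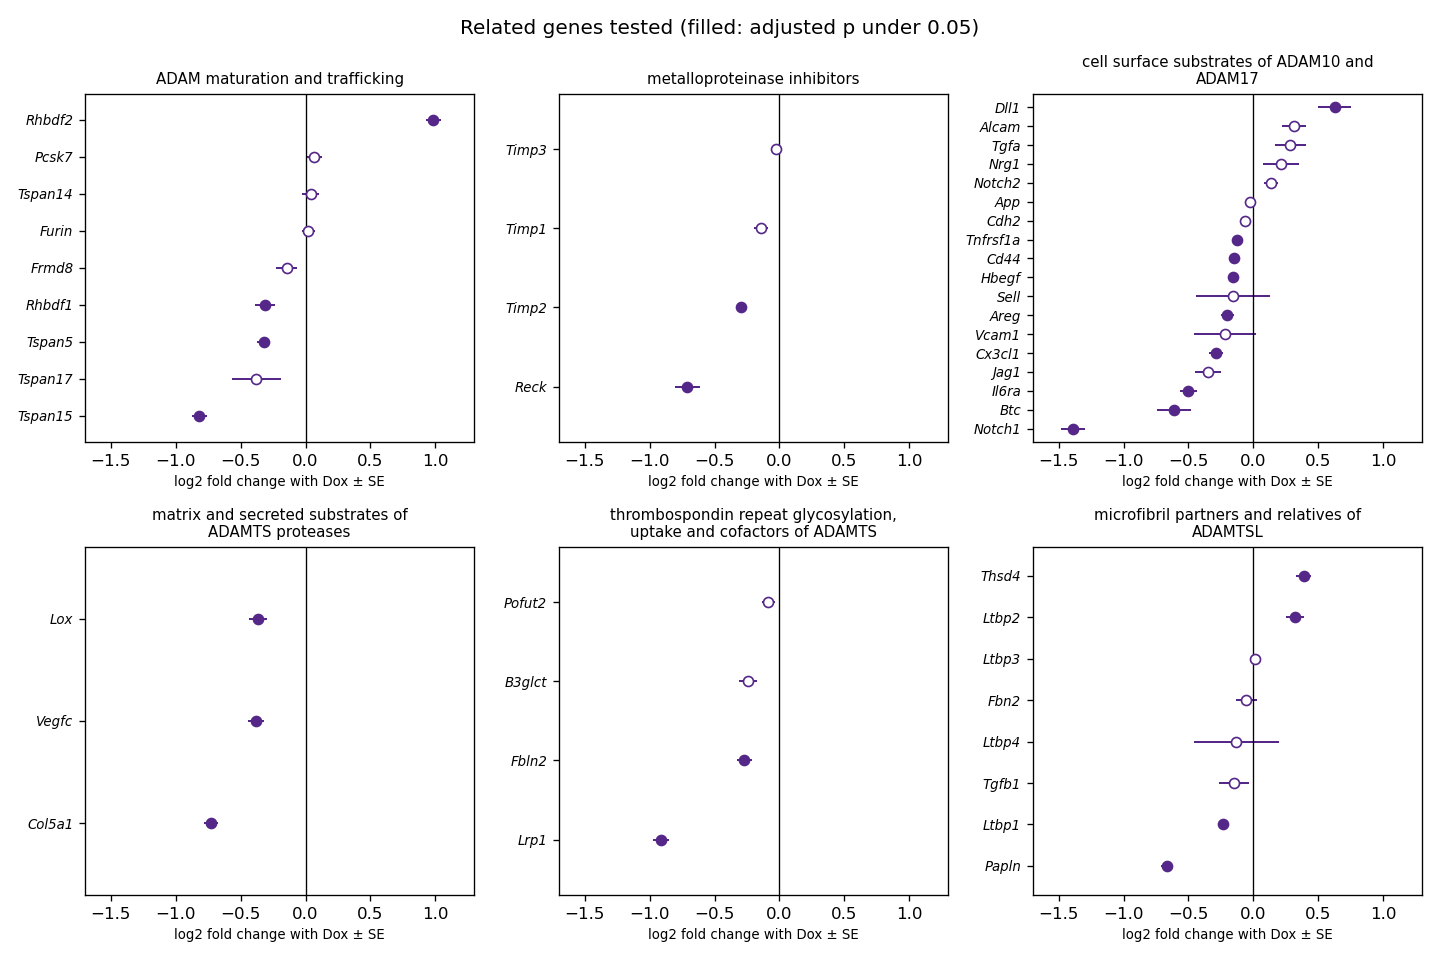
Log2 change with Dox against without Dox (horizontal axes, points with standard errors) of the tested genes of 6 lists; filled points passed an adjusted p of 0.05. Rhbdf2 (0.98) and Dll1 (0.63) lie farthest to the right, and Notch1 (-1.39) and Lrp1 (-0.91) farthest to the left.

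Markers were read in the same libraries to check the label of the cells. The epithelial markers summed to 91.6 to 97.0 FPKM without Dox and 369 to 406 with Dox, nearly all of it Krt18. Epcam rose from 0.128 ± 0.0394 to 4.06 ± 0.225 FPKM (adjusted p = 5.26e-04), and Krt19 and Krt5 were at 0 in all libraries. Epcam reached the filter only through its mean with Dox, so its passing the filter and its rise are linked. Of 6 fibroblast and perivascular markers both tested genes fell, Pdgfra from 18.6 ± 0.212 to 15.5 ± 1.03 FPKM (adjusted p = 0.0410) and Pdgfrb from 32.4 ± 1.495 to 15.5 ± 0.212 FPKM (adjusted p = 9.78e-05), and the list summed to 50.4 to 52.7 FPKM without Dox and 29.9 to 32.3 with Dox. Lum was at 0 in this list. The 5 leukocyte markers found summed to at most 0.338 FPKM with Cd3e at 0, and the 4 endothelial markers to 4.19 to 5.12 FPKM, most of it Cdh5. In such bulk RNA of 1 clone, a change in some of the cells and a change in each cell cannot be told apart. The part of these marker differences in the changes of the members was not tested.

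The members differed in how well their calls held up. Adamts14, Adamts7, Adamts8 and Adamtsl5 passed under every other setting in which they were tested, including each fit without 1 library. Adamts9 and Adamts4 passed in 8 of 15 and 8 of 14 other settings, Adamtsl3 in 10 of 14 and Adam15 in 6 of 15. All 8 were lower with Dox in each of those fits.

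**Figure D5:**
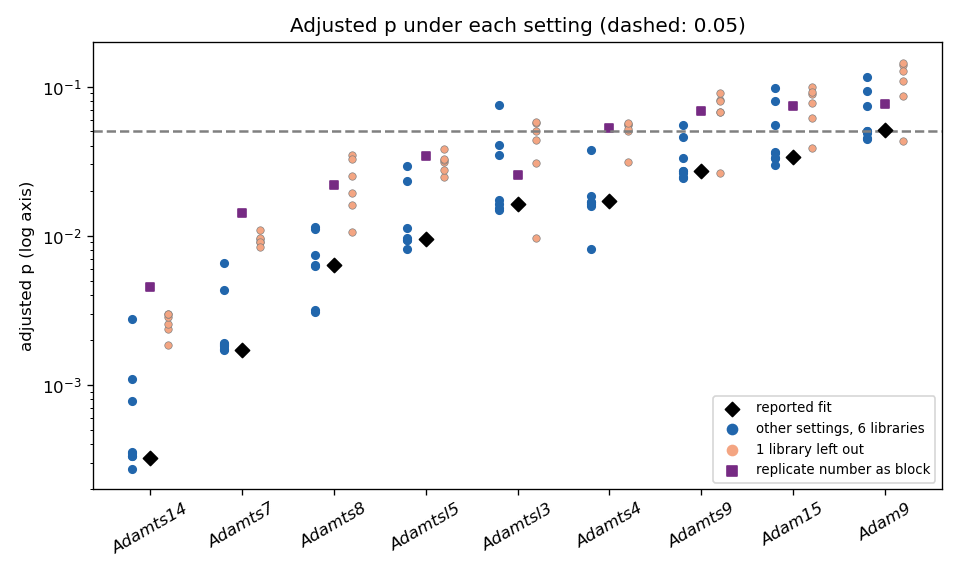
Adjusted p (vertical log axis) of the 8 members that fell and of Adam9 under the reported fit (diamonds), 9 settings with all 6 libraries (circles and, for the replicate block, squares) and 6 fits without 1 library (small circles). Adamts14, Adamts7, Adamts8 and Adamtsl5 stay below the dashed line at 0.05 throughout.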

How the data were processed

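mRNA of 6 cultures was sequenced as single 50-base reads. The methods give 48 h of Dox, while a figure legend of the paper takes the sequenced samples from repeated experiments with a longer treatment. This difference could not be settled. According to the methods and the processing notes, the authors mapped reads with gSNAP and estimated FPKM with Cufflinks. The processing notes name GRCm38.p6, the methods also name an FVB/NJ assembly, and which of them gave the FPKM could not be settled. Tool versions, the annotation release and the strand used in counting are not given in the sources used here. The deposited table holds FPKM per gene and library (0 per-sample columns were left unused). It also holds group means, fold changes, p-values and q-values of the authors, which were not used. Of 43611 rows 63 with a repeated identifier were dropped, keeping the row with the highest mean. A placeholder in 6 values of 4 genes, none of them a member, was set to missing.

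Libraries were grouped by the sample titles, 3 without and 3 with Dox. limma 3.58.1 in R 4.3.3 (lmFit, eBayes with a trend) was fitted to log2(FPKM + 0.1) of the 12879 genes that averaged at least 1 FPKM, with Dox as the only term and Benjamini-Hochberg adjustment, and was tested on simulated data. Intervals are 95%. The members and gene lists were chosen with earlier results of these data known. Each tested member is named, members below the filter with a mean of at least 0.1 FPKM are named with the fit without a filter (Adamtsl1, below that level, was added after its values were seen), and the rest are counted or named as near 0. From each list the genes that passed are named; others named from the lists were picked for their roles.

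Positions and 3′ UTRs are those of GENCODE for GRCm38. Shared sequence was found by BLAST 2.17.0 (alignments of 50 bases or more, 95% identical), and shares of at least 10% are given. All 57 members had a position. Some overlapping and marker genes are not reported here. Python 3.11.15, numpy 2.4.6, pandas 2.3.3 and matplotlib 3.10.9 were used. Alternatives were pseudocounts of 1 and 0.01, no filter, a mean of at least 5 FPKM, quantile normalization, median scaling, limma without the trend, the replicate block, an unmoderated linear model on FPKM, and leaving out each library.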

Additional observations from a re-analysis of the deposited data

How the results depend on the processing

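Of 289 values of the 20 members under up to 15 alternatives, 251 kept their direction and their side of the threshold, 26 kept the direction but no longer passed, 5 passed in addition and 7 changed sign. Over all genes, 1935 passed as reported, 1289 in a linear model per gene on FPKM and 1069 to 1384 when 1 library was left out, below the reported count by over 1.5 times without the second vehicle library or any Dox library. Of the ADAM genes 1 passed as reported. This became 2, with Adam9 added, with a pseudocount of 1, a mean of at least 5 FPKM, quantile normalization and median scaling. It became 0 without a filter, without the trend and in the linear model on FPKM, and 0 to 1 without 1 library, where the gene was Adam15 without the third vehicle library and Adam9 without the first Dox library. The count of ADAMTS genes went from 5 to 3 with a mean of at least 5 FPKM, where 5 were tested. It was 4 without a filter, where Adamts9 no longer passed (limma adjusted p = 0.0552), and 3 to 4 without 1 library. The count of ADAMTSL genes went from 2 to 0 with a mean of at least 5 FPKM, where only Adamtsl4 was tested, to 1 in the linear model on FPKM, and to 1 to 2 without 1 library. The sign changed for 3 genes that had not passed the test: Adamts3 was at a log2 change of 0.0123 with quantile normalization and -0.15 to 0.0602 without 1 library, Adamts5 at -0.0909 to 0.0438 and Adam11, reported at 0.29, at -0.17 to 0.54 without 1 library, below 0 only without the second vehicle library. The cause of these shifts was not tested.

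The labels number the libraries 1 to 3 in both groups, but same-numbered libraries did not deviate together (correlations 0.0287, 0.0359 and -0.00759 across genes), so the numbers were not used as pairs. With the replicate block 1337 genes passed, of which 0 were ADAM, 3 ADAMTS and 2 ADAMTSL genes. The number of reads is unknown, so no counting error could be attached to low FPKM.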
